A study of Homo sapiens with 32 samples.

Results

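The genes of sterol and fatty acid synthesis described here are 35 targets, enzymes and regulators of the SREBP transcription factors. They were matched by symbol to a list that was put together with earlier results of these data known, and 35 of 35 were found among the 25559 symbols of the count tables. The cholesterol branch holds 20 of them: 7 of the mevalonate pathway, 9 from squalene to cholesterol, and 4 further targets of sterol regulation. Another 9 make up the fatty acid branch, 3 are regulators of the pathway and 3 are sterol transporters. After the filter on low counts, 35 of 35 were among the 17801 genes tested.

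SREBPs, encoded by SREBF1 and SREBF2, are made as precursors in the endoplasmic reticulum membrane, where SCAP escorts them and INSIG proteins hold them back when sterols are plentiful. When sterols run low, the precursor travels to the Golgi, is cut, and its released part enters the nucleus and raises the genes of cholesterol uptake and synthesis (mainly the SREBF2 product) and of fatty acid synthesis (mainly a product of SREBF1). INSIG1 is itself a target, so its mRNA reports on the pathway while its protein restrains it. Dividing T cells draw on these pathways for new membrane.

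The series sequenced messenger RNA from 4 human cell lines after 96 hours with romidepsin and azacitidine together, azacitidine alone, romidepsin alone or neither drug. Azacitidine is a cytidine analogue that traps DNA methyltransferases, and romidepsin inhibits histone deacetylases. HH and H9 derive from cutaneous T-cell lymphoma, PF382 from T-cell acute lymphoblastic leukemia and TLOm1 from adult T-cell leukemia. Each line gave 8 libraries, 1 per treatment, so each group holds at most 1 library per line and the lines are the replicates. Azacitidine was given daily at 125, 250 and 500 nM in PF382 and TLOm1 and at 50, 125 and 250 nM in HH and H9. Romidepsin was added at the start only, at 1 nM in H9 and TLOm1 and at 1.25 nM in PF382. The HH libraries are titled 1.25 nM in the combinations but 1 nM alone, so its pairs with and without azacitidine are not matched on romidepsin dose. Total counts ran from 16175077 to 32496676 per library, and CPM here means counts over the TMM-scaled library total, times 1e6.

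Of 10 T-cell markers, 9 were found in the tables, and in untreated cells 9 of these had at least 10 counts in PF382 and H9 and 7 in TLOm1 and HH. LCK was at 0 counts in untreated HH, where CD7 was at 0.0872 CPM. In untreated TLOm1, CD3D was at 0.768, CD3G at 0.128, CD5 at 0.469, CD7 at 0.256 and LCK at 1.41 CPM. The others there, CD3E, CD247, CD2 and CD4, ran from 42 to 1010 CPM. In untreated H9, CD2 was at 0.464 CPM and the other T-cell markers ran from 4.17 to 342 CPM. H9 also had the epithelial marker EPCAM at 95.9 CPM and the B-cell markers CD79A and CD79B at 50.1 and 22.9 CPM. Adipocyte markers had 0 genes past the low-count filter. Keratin and other epithelial and liver markers summed to between 0.145 and 181 CPM over all libraries. At 250 nM azacitidine against untreated, 2 of these 5 rose and 0 of 9 T-cell markers changed, and with the combination 2 of the same 5, 2 of 5 B-cell markers and 1 of 4 tested myeloid markers rose and 2 of 9 T-cell markers fell. Over all genes, 3.85% rose and 2.14% fell in the first of these comparisons, and 14.2% rose and 8.76% fell in the second. The part of these shifts in the results was not tested. Whether a lower level reflects less RNA per cell or fewer cells that express a gene cannot be told apart in bulk RNA.

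As the list is built around the SREBPs, the 250 bases before the transcription start sites of its members were read from RefSeq. The build, GRCh38.p14, is other than that of the counts. RefSeq windows were found for 30 of 35 members. The box CCAAT, bound by NF-Y, a factor that acts beside SREBPs at many sterol genes, was searched on either strand. It stood in the window of 15 of 17 matched cholesterol genes and 4 of 8 matched fatty acid genes, against 37% of 27305 genes overall (32% of 35116 windows). The sterol regulatory element TCACNCCAC was in 1 member, SREBF2, and in 1.09% of genes, and its core CACNCCAC was in 6 members and 5.89% of genes. These are matches of letters, not binding sites. In the windows shown here, capitals mark CCAAT boxes and element cores on either strand. HMGCS1 and SCD had the largest falls of their branches, and MVK shares its divergent promoter with MMAB. SREBF2 carries the full element, and PMVK, with no match, passed no test over the 4 lines. CYP51A1 and FADS1 also had no match and fell with the combination at 250 nM azacitidine. TM7SF2 has a CCAAT box and did not fall. Whether matches go with falls was not tested.
HMGCS1, chr5:43313413-43313662, minus strand: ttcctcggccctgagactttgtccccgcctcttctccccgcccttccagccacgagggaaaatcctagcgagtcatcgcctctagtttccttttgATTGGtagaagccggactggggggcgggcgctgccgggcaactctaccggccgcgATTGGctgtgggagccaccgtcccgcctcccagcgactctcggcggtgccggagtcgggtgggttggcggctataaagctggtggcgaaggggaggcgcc
MVK, chr12:109573544-109573793, plus strand: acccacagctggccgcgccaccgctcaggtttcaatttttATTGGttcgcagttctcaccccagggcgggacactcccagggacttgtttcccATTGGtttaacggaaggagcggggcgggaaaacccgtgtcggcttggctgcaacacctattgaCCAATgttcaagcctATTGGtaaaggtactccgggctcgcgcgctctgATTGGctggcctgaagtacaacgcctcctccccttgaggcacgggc
SREBF2, chr22:41832855-41833104, plus strand: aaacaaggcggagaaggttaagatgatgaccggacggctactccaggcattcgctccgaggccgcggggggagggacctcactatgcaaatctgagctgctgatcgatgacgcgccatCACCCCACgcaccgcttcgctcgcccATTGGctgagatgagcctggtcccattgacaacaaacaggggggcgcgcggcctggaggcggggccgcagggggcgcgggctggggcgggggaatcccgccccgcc
SCD, chr10:100346983-100347232, plus strand: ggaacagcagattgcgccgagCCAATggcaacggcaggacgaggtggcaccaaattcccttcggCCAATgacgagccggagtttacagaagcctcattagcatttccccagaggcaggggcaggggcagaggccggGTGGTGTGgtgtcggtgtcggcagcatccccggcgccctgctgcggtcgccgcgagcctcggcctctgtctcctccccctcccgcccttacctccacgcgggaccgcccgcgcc
PMVK, chr1:154936720-154936969, minus strand: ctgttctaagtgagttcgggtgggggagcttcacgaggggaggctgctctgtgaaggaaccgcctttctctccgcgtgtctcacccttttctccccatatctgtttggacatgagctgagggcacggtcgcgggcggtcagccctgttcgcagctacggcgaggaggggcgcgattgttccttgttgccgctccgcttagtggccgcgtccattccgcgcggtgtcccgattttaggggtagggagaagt

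Azacitidine at 250 nM lowered most of the cholesterol branch and fewer of the fatty acid genes. In the edgeR quasi-likelihood test over all genes, 20 of 35 members fell and 0 rose, where 2.14% of all genes tested fell and 3.85% rose, 5.99% in all. The fallen were 15 of 20 cholesterol genes, 4 of 9 fatty acid genes, 1 of 3 regulators and 0 of 3 transporters. The median log2 change was -0.87 in the cholesterol branch and -0.40 in the fatty acid branch, against 0.02 over all genes tested. In 20 of 20 cholesterol genes the estimate was negative, as it was in 46.5% of all genes.

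Along the mevalonate pathway, 6 of 7 genes fell at 250 nM azacitidine. ACAT2, a cytosolic thiolase that joins acetyl-CoA units, fell by 0.95 ± 0.20 on the log2 scale (SE of the edgeR fit, adjusted p = 0.00537). This SE rests on the spread pooled over 32 libraries, not on the 4 line changes alone. HMGCS1, the hydroxymethylglutaryl-CoA synthase of the next step, fell by 1.95 ± 0.33, the largest fall of the branch (adjusted p = 0.000906). The mevalonate kinase MVK (-1.03 ± 0.19), the decarboxylase MVD (-1.03 ± 0.16), the isopentenyl diphosphate isomerase IDI1 (-0.70 ± 0.17) and the farnesyl diphosphate synthase FDPS (-0.93 ± 0.19) fell too. PMVK, the phosphomevalonate kinase between MVK and MVD, was at -0.19 ± 0.13 (adjusted p = 0.422).

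Of the 9 genes from squalene to cholesterol, 6 fell. FDFT1, the squalene synthase that commits the pathway to sterols, fell by 1.15 ± 0.18 (adjusted p = 0.000364). SQLE, the squalene epoxidase, fell by 0.77 ± 0.16, and LSS, which closes the sterol rings, fell by 0.73 ± 0.12. Of the later enzymes, NSDHL (-0.63 ± 0.14) and HSD17B7 (-0.87 ± 0.17) of C4 demethylation fell, as did DHCR7, the last reductase of a route to cholesterol (-1.17 ± 0.20, adjusted p = 0.00122). The lanosterol demethylase CYP51A1 was at -0.79 ± 0.26 and the sterol isomerase EBP at -0.53 ± 0.18, at adjusted p = 0.0767 and 0.0802. TM7SF2, a sterol C14 reductase, was at -0.06 ± 0.14.

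Among the 4 further sterol targets, INSIG1 fell by 0.99 ± 0.22 (adjusted p = 0.00924), the sterol carrier STARD4 fell by 0.86 ± 0.17, and MMAB, a cobalamin enzyme that shares its promoter with MVK, fell by 1.03 ± 0.20. TMEM97, the sigma-2 receptor and a partner of the lysosomal cholesterol carrier NPC1, was at -0.41 ± 0.12 (adjusted p = 0.0515).

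**Figure D1:**
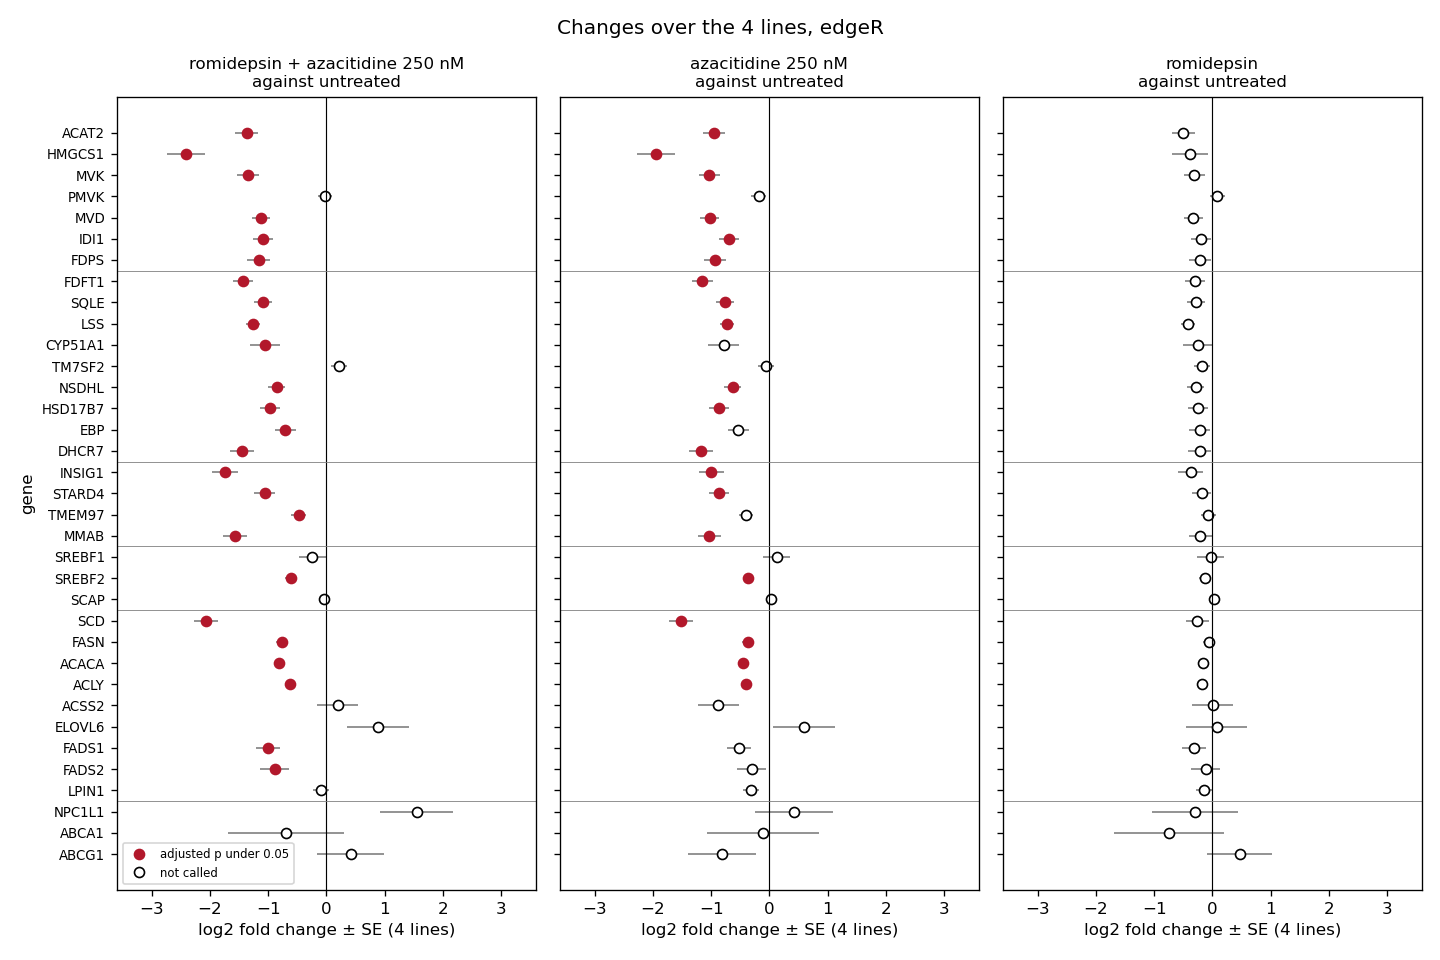
Log2 fold change (x axis, with SE of the edgeR fit) of each of the 35 genes (y axis, grouped by role with lines between groups). Panels show the combination at 250 nM azacitidine, azacitidine at 250 nM and romidepsin, each against untreated cells. Filled points passed an adjusted p of 0.05 in edgeR: 25, 20 and 0 genes, each of them lower in treated cells.

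HMGCS1 levels follow for every library, each series running from no azacitidine through the 3 doses of the line. In PF382, HMGCS1 was at 115, 65.2, 52.1 and 50.6 CPM with romidepsin and 219, 130, 102 and 78.6 CPM without it. In TLOm1, HMGCS1 was at 367, 172, 93.2 and 91.8 CPM with romidepsin and 291, 218, 108 and 71.8 CPM without it. The level was lower at each higher dose, with romidepsin and without it. In HH, HMGCS1 was at 400, 93.9, 73.3 and 70.6 CPM with romidepsin and 635, 405, 174 and 78.7 CPM without it. In H9, HMGCS1 was at 359, 267, 154 and 76.9 CPM with romidepsin and 414, 380, 200 and 94.6 CPM without it. The libraries at 250 nM azacitidine, 78.7 to 108 CPM, did not overlap the untreated ones, 219 to 635 CPM, so lines that began far apart ended close together. TLOm1 was the line where romidepsin alone was above untreated.

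DHCR7 in PF382 was at 63, 47.3, 43.9 and 34.5 CPM with romidepsin and 81.5, 66.3, 54.1 and 43.3 CPM without it, again from no azacitidine to 500 nM. DHCR7 in TLOm1 was at 121, 64.8, 37.7 and 35.1 CPM with romidepsin and 139, 87.1, 55.3 and 29.7 CPM without it. Each step of dose was lower than the one before in these lines. DHCR7 in HH was at 297, 143, 105 and 81.7 CPM with romidepsin and 351, 233, 164 and 111 CPM without it, from none to 250 nM. DHCR7 in H9 was at 136, 113, 96.7 and 78.6 CPM with romidepsin and 143, 133, 105 and 72 CPM without it. Within each line the 250 nM library was below the untreated one, but across lines the groups overlapped, since HH at 250 nM still exceeded untreated PF382.

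FDFT1 in PF382 was at 257, 183, 161 and 127 CPM with romidepsin and 398, 282, 242 and 196 CPM without it. FDFT1 in TLOm1 was at 374, 271, 208 and 168 CPM with romidepsin and 392, 298, 200 and 135 CPM without it. With romidepsin, PF382 was lower at each dose, whereas TLOm1 at 250 and 500 nM was higher with romidepsin than without it. FDFT1 in HH was at 628, 324, 268 and 221 CPM with romidepsin and 836, 641, 476 and 294 CPM without it. FDFT1 in H9 was at 528, 347, 273 and 188 CPM with romidepsin and 560, 462, 325 and 211 CPM without it. The 4 libraries at 250 nM azacitidine, 200 to 294 CPM, lay below the 4 untreated ones, 392 to 836 CPM.

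In the fatty acid branch, 4 of 9 genes fell at 250 nM azacitidine and 5 of 9 did not pass the test. At an unadjusted p under 0.05 there were 7 of 9, each lower with azacitidine, against 21.5% of all genes in either direction. SCD, the stearoyl-CoA desaturase that makes monounsaturated fatty acids, fell by 1.52 ± 0.20 on the log2 scale (adjusted p = 0.000118). ACACA, the acetyl-CoA carboxylase that makes malonyl-CoA, fell by 0.46 ± 0.06 (adjusted p = 0.000107). ACLY, which makes cytosolic acetyl-CoA from citrate, fell by 0.40 ± 0.08 (adjusted p = 0.00323), and FASN, the fatty acid synthase, fell by 0.36 ± 0.10 (adjusted p = 0.0287). ACSS2, which makes acetyl-CoA from acetate, was at -0.88 ± 0.36. The desaturases FADS1 (-0.52 ± 0.20) and FADS2 (-0.30 ± 0.25), the elongase ELOVL6 (0.60 ± 0.53) and the phosphatidate phosphatase LPIN1 (-0.31 ± 0.14) did not pass either. For ACSS2 and ELOVL6, the SE of the fit was at least 0.36, against 0.20 for SCD.

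SCD in PF382 was at 568, 247, 179 and 123 CPM with romidepsin and 871, 457, 278 and 127 CPM without it. SCD in TLOm1 was at 673, 515, 241 and 118 CPM with romidepsin and 774, 683, 425 and 189 CPM without it. No library at 500 nM in these lines reached 200 CPM. SCD in HH was at 1700, 771, 510 and 330 CPM with romidepsin and 1890, 1470, 1060 and 569 CPM without it. SCD in H9 was at 1530, 1340, 887 and 500 CPM with romidepsin and 1620, 1490, 917 and 458 CPM without it. The libraries at 250 nM azacitidine, 278 to 569 CPM, were all below the untreated ones, 774 to 1890 CPM.

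ACACA in PF382 was at 111, 82.8, 69.8 and 60.3 CPM with romidepsin and 120, 114, 97.2 and 74.9 CPM without it. ACACA in TLOm1 was at 214, 147, 133 and 114 CPM with romidepsin and 223, 193, 169 and 151 CPM without it. Every library with romidepsin was below its partner without it. ACACA in HH was at 174, 139, 142 and 117 CPM with romidepsin and 219, 177, 182 and 153 CPM without it. ACACA in H9 was at 167, 128, 128 and 106 CPM with romidepsin and 189, 146, 138 and 124 CPM without it. The same held in HH and H9, and each treated library was below the untreated library of its line, although the ranges of the groups overlapped across lines.

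ACLY in PF382 was at 387, 339, 327 and 288 CPM with romidepsin and 428, 397, 387 and 333 CPM without it. ACLY in TLOm1 was at 598, 466, 399 and 348 CPM with romidepsin and 653, 563, 486 and 422 CPM without it. The steps between doses were small and ran downward in each series. ACLY in HH was at 615, 461, 451 and 401 CPM with romidepsin and 774, 648, 555 and 475 CPM without it. ACLY in H9 was at 728, 635, 626 and 572 CPM with romidepsin and 764, 699, 679 and 616 CPM without it. Here too each library with romidepsin was below its partner.

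Of the regulators, 1 of 3 passed. SREBF2 fell by 0.36 ± 0.10 at 250 nM azacitidine (adjusted p = 0.0302), while SREBF1, at 0.13 ± 0.23, and SCAP, at 0.02 ± 0.08, did not pass the test.

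SREBF2 in PF382 was at 260, 205, 207 and 169 CPM with romidepsin and 333, 288, 262 and 240 CPM without it. SREBF2 in TLOm1 was at 468, 472, 389 and 294 CPM with romidepsin and 504, 503, 499 and 437 CPM without it. In TLOm1 without romidepsin it barely differed below 500 nM. SREBF2 in HH was at 723, 586, 537 and 454 CPM with romidepsin and 762, 723, 682 and 592 CPM without it. SREBF2 in H9 was at 372, 298, 282 and 236 CPM with romidepsin and 368, 321, 300 and 218 CPM without it. The 250 nM library was below the untreated one in 4 of 4 lines, with log2 changes between -0.76 and -0.01.

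SREBF1 in PF382 was at 225, 194, 178 and 130 CPM with romidepsin and 229, 235, 192 and 129 CPM without it. SREBF1 in TLOm1 was at 214, 347, 318 and 298 CPM with romidepsin and 251, 329, 325 and 266 CPM without it. PF382 was lowest at the top dose, and the 6 TLOm1 libraries with azacitidine were above untreated. SREBF1 in HH was at 714, 664, 720 and 634 CPM with romidepsin and 563, 745, 1110 and 1250 CPM without it. SREBF1 in H9 was at 172, 160, 153 and 91.8 CPM with romidepsin and 192, 188, 190 and 104 CPM without it. HH stood apart, with a level that climbed with azacitidine alone and not with romidepsin present. At 250 nM azacitidine the log2 changes of the lines lay between -0.88 in H9 and 1.15 in HH.

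SCAP in PF382 was at 121, 107, 110 and 95.1 CPM with romidepsin and 115, 117, 125 and 117 CPM without it. SCAP in TLOm1 was at 109, 114, 120 and 133 CPM with romidepsin and 115, 103, 108 and 109 CPM without it. TLOm1 with romidepsin was a little higher at each higher dose, and the other series shown had no steady direction. SCAP in HH was at 143, 146, 135 and 126 CPM with romidepsin and 128, 123, 135 and 140 CPM without it. SCAP in H9 was at 148, 139, 147 and 143 CPM with romidepsin and 155, 142, 152 and 145 CPM without it. No comparison over the 4 lines passed the test for SCAP.

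INSIG1 in PF382 was at 305, 176, 140 and 115 CPM with romidepsin and 474, 267, 185 and 117 CPM without it. INSIG1 in TLOm1 was at 719, 458, 272 and 181 CPM with romidepsin and 965, 1020, 735 and 402 CPM without it. Its level with romidepsin was below that without it at each dose. INSIG1 in HH was at 427, 165, 170 and 165 CPM with romidepsin and 507, 451, 377 and 290 CPM without it. INSIG1 in H9 was at 270, 202, 149 and 90.3 CPM with romidepsin and 308, 295, 198 and 99.8 CPM without it. In HH, the libraries with romidepsin and azacitidine were close to 165 CPM at each dose, and those with azacitidine alone were all higher.

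**Figure D2:**
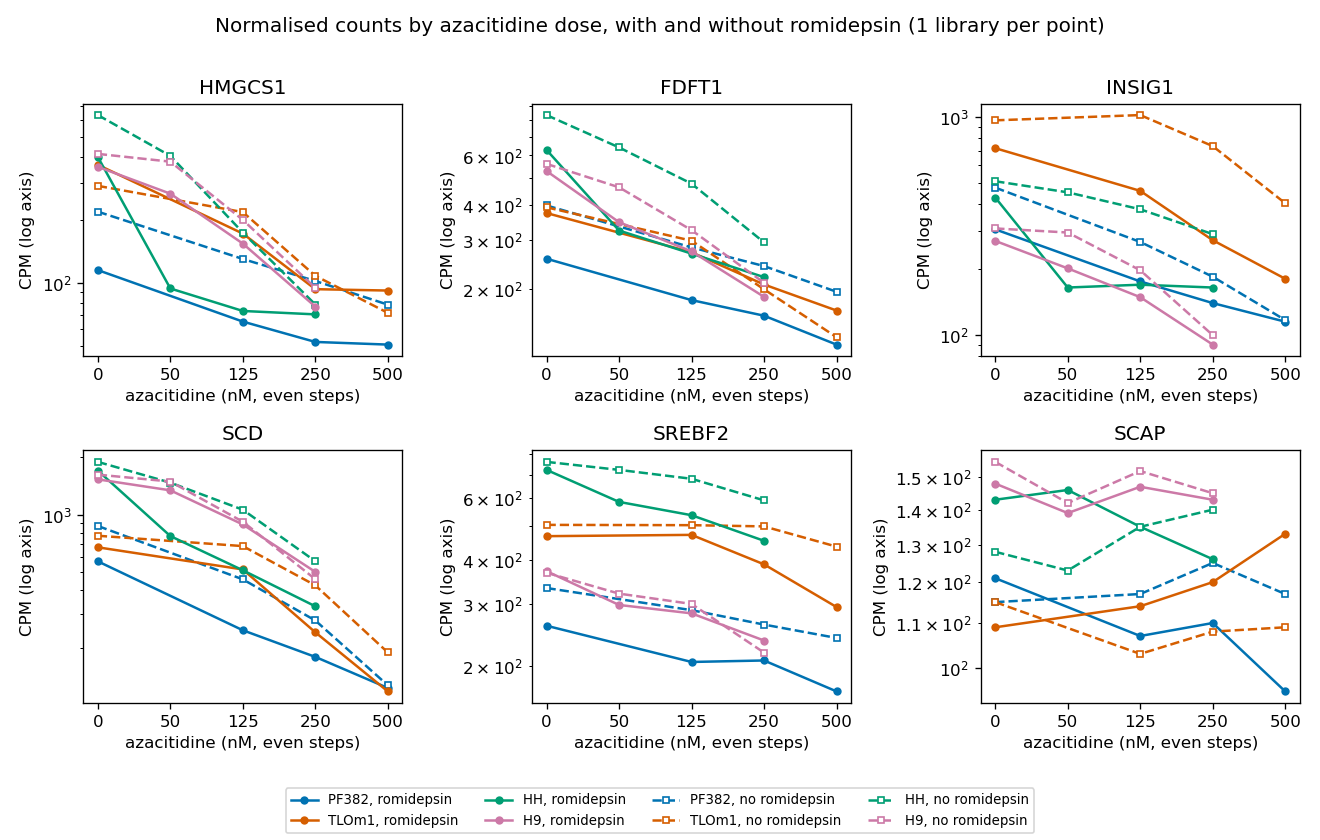
CPM on a log axis (y) against azacitidine dose in nM (x, even steps) for 6 genes, 1 library per point, with lines coloured by cell line, filled circles for libraries with romidepsin and open squares for those without. HMGCS1, FDFT1 and SCD are lower at each higher dose in each series, and SCAP stays between 95.1 and 155 CPM.

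The falls grew with dose. Within line and romidepsin status, over the 24 libraries with azacitidine, 25 of 35 members fell per doubling of dose and 0 rose, where 11.4% of all genes fell and 17.1% rose, 28.5% in all. The fallen were 18 of 20 cholesterol genes, with a branch median of -0.27 log2 units per doubling, and 6 of 9 fatty acid genes, with a branch median of -0.15, against 0.01 over all genes. SCD had the steepest slope, at -0.71 ± 0.05 per doubling (edgeR, adjusted p = 1.98e-08). HMGCS1 followed at -0.59 ± 0.08 (adjusted p = 3.83e-05), then INSIG1 at -0.44 ± 0.06, MMAB at -0.42 ± 0.05 and DHCR7 at -0.38 ± 0.04. FDFT1 was at -0.37 ± 0.03 (adjusted p = 4.22e-08). PMVK and TM7SF2 were the cholesterol genes that did not pass, at -0.07 ± 0.03 and 0.04 ± 0.05. Without each line in turn, 25 of these 25 genes still passed.

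The lowest dose shared by the lines, 125 nM, gave the same direction without calls. At 125 nM azacitidine against untreated, 0 of 35 members passed in edgeR, where 0.0955% of all genes fell. At an unadjusted p under 0.05 there were 18 of 35, against 9.9% of all genes in either direction. Limma-voom called 1 and DESeq2 7. The estimate was negative in 19 of 20 cholesterol genes, with a median of -0.45, and in 8 of 9 fatty acid genes, with a median of -0.20, against 0.02 over all genes. With a median above 0, fewer genes overall had a negative estimate than not, and their exact share is not given here. The members were measured in the same libraries, so their directions are not independent. Set against untreated cells of the same line, the cholesterol median moved with dose in each line. It was -0.29, -0.49 and -0.79 at 125, 250 and 500 nM in PF382, and -0.33, -0.89 and -1.31 at the same doses in TLOm1. At 50, 125 and 250 nM it was -0.40, -0.81 and -1.25 in HH, and -0.11, -0.43 and -0.80 in H9. The fatty acid median was -0.11, -0.30 and -0.44 in PF382 and 0.05, -0.21 and -0.58 in TLOm1 at 125, 250 and 500 nM. In HH it was -0.08, -0.27 and -0.67, and in H9 -0.18, -0.48 and -0.65, at 50, 125 and 250 nM. H9 was the line where the branches moved by similar amounts.

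**Figure D3:**
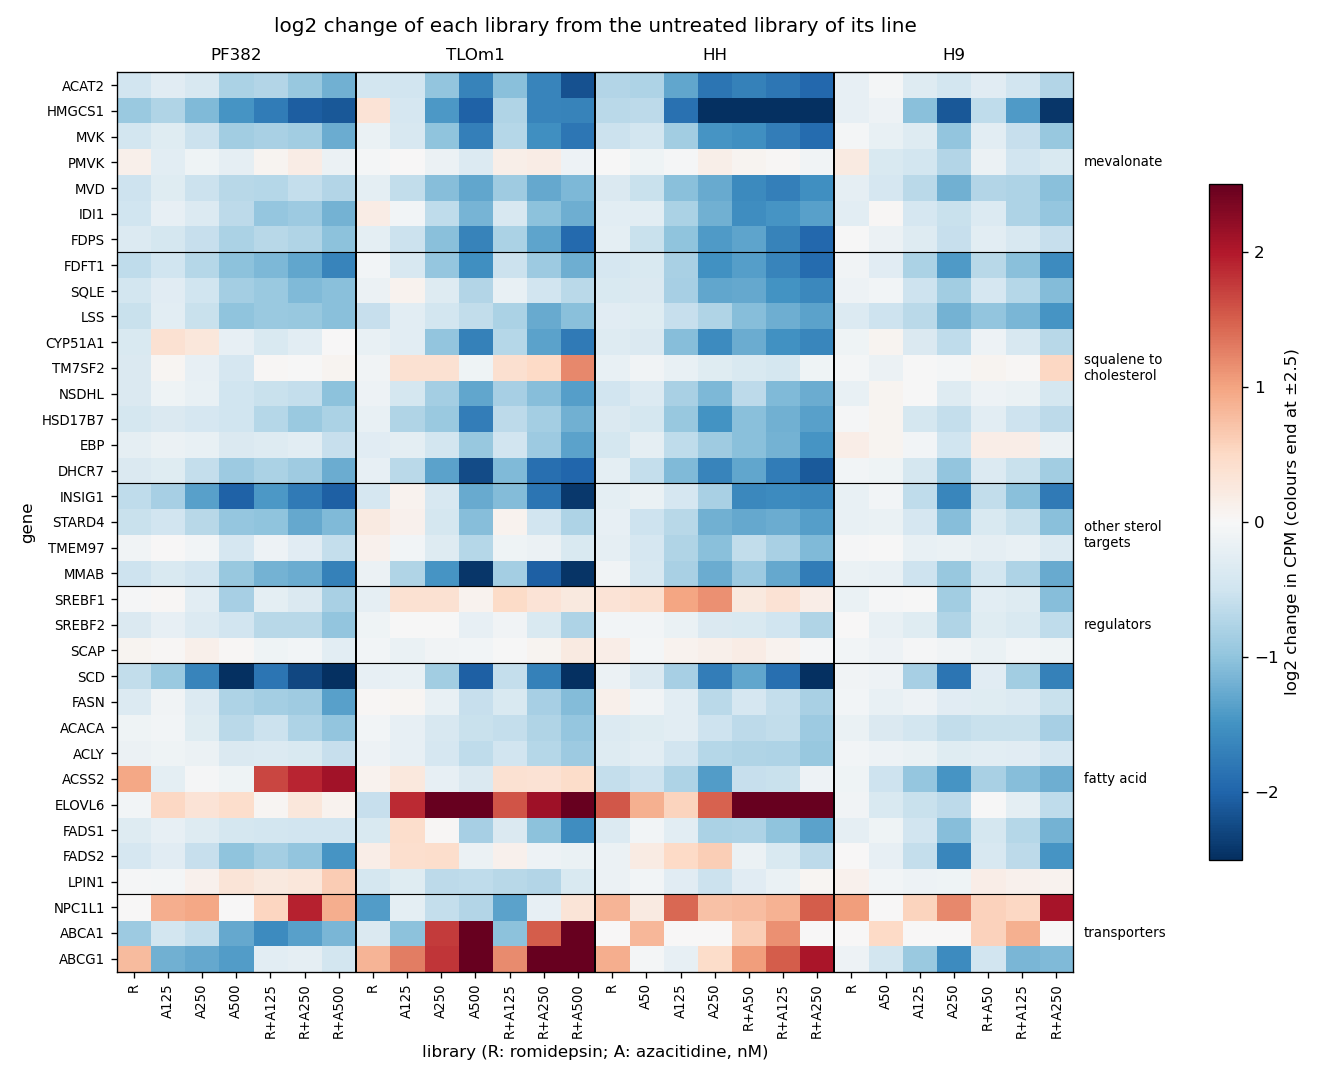
Log2 change in CPM (colour, ending at 2.5 in either direction) of each of the 35 genes (rows, grouped by role) in each treated library (columns, grouped by line) from the untreated library of its line. The cholesterol rows are lower in most columns and most so at the highest doses. PMVK, TM7SF2, SREBF1, SCAP, ACSS2, ELOVL6 and the transporters, among others, break the pattern. So do EBP in H9 and CYP51A1 in PF382, which was at 0.38 and 0.29 with azacitidine alone at 125 and 250 nM.

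With romidepsin alone, over 4 lines, 0 of 35 members passed in edgeR against untreated cells, where 0% of all genes fell and 0.0169% rose. At an unadjusted p under 0.05 there were 5 of 35, each lower with romidepsin, against 5.61% of all genes in either direction. Limma-voom and DESeq2 called 0. The estimate was negative in 19 of 20 cholesterol genes and 7 of 9 fatty acid genes, with medians of -0.25 and -0.14, against 0.01 over all genes. As that last median was above 0, negative estimates were the minority over all genes, but their exact share is not given here. LSS was lowest in p, at -0.42 ± 0.12 (unadjusted p = 0.0018, adjusted p = 0.455). In that comparison 14 of 20 cholesterol genes were lower in 4 of 4 lines. The share of all genes lower in 4 of 4 lines is not given here, so this count has no background. Within a line these genes share the same romidepsin library and the same untreated library, so their directions are not independent. Whether the count exceeds that of other genes was not tested.

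Within single lines, 4 libraries with romidepsin were set against 4 without it, matched on azacitidine dose. In PF382, 22 of 35 members fell and 2 rose, where 11.6% of all genes fell and 19.1% rose, 30.7% in all. In TLOm1, 13 fell and 1 rose, where 15.5% of all genes fell and 17.1% rose. In HH, 22 fell and 2 rose, where 13.7% of all genes fell and 14% rose, 27.7% in all. In H9, 1 fell and 1 rose, near the 4.47% of all genes called in either direction (0.831% fell and 3.64% rose). The cholesterol branch gave 15, 7, 16 and 1 of the falls in PF382, TLOm1, HH and H9, with median log2 changes of -0.41, -0.17, -0.56 and -0.13. LSS was the fall in H9, fell by 0.39 ± 0.08 (adjusted p = 0.00904), and it fell by 0.41 ± 0.09, 0.58 ± 0.09 and 0.57 ± 0.08 in PF382, TLOm1 and HH. The LSS call in H9 was lost without the 50 nM pair or the 125 nM pair of that line. In H9, EBP rose by 0.21 ± 0.06, with an adjusted p just under the threshold of 0.05, and in HH it fell by 0.59 ± 0.06 (adjusted p = 6.53e-07).

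The test that romidepsin had equal effects in the 4 lines was passed by 18 of 35 members, where 33% of all genes passed it. FDFT1 fell by 0.62 ± 0.08 in PF382 and 0.66 ± 0.08 in HH, with 0.04 ± 0.08 in TLOm1 and -0.23 ± 0.08 in H9 (adjusted p of the difference = 0.000284). HMGCS1 fell by 0.89 ± 0.22 in PF382 and 1.05 ± 0.23 in HH, with 0.03 ± 0.22 in TLOm1 and -0.35 ± 0.22 in H9 (adjusted p of the difference = 0.0471). FADS1 fell by 0.73 ± 0.08 in TLOm1 and 0.59 ± 0.08 in HH, with -0.19 ± 0.08 in PF382 and -0.23 ± 0.08 in H9 (adjusted p of the difference = 0.00167). INSIG1 fell by 1.04 ± 0.17 in TLOm1 and 0.91 ± 0.18 in HH, with -0.42 ± 0.17 in PF382 and -0.32 ± 0.17 in H9, and its difference did not pass (adjusted p = 0.0676).

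**Figure D4:**
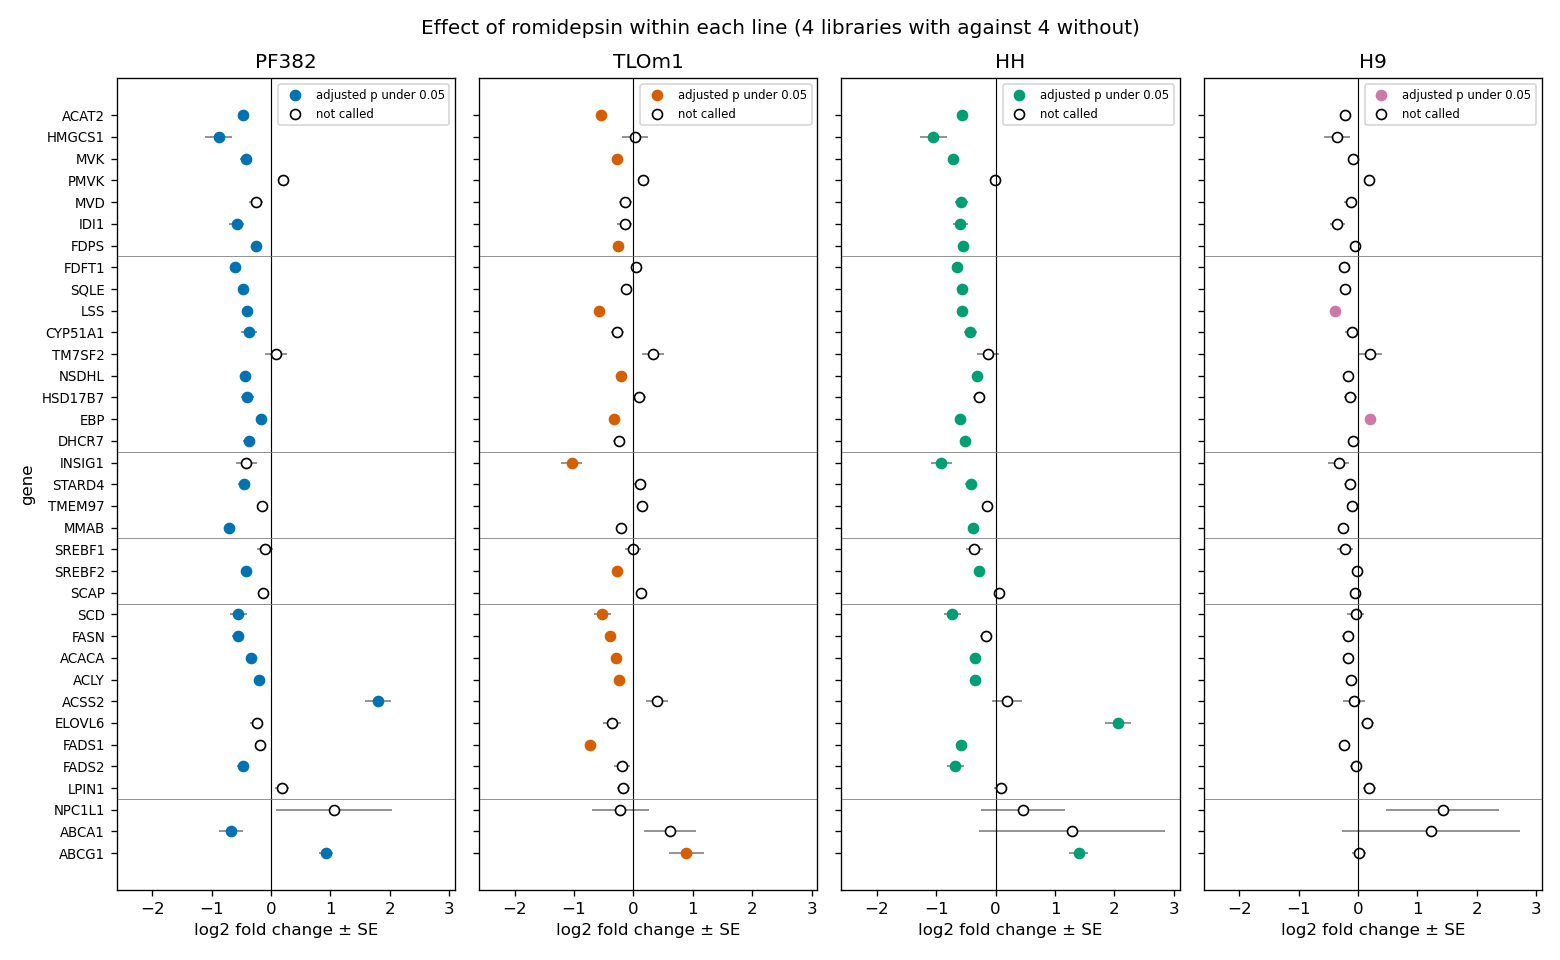
Log2 fold change with SE (x axis) of each of the 35 genes (y axis) for 4 libraries with romidepsin against 4 without it in each line. Filled points passed an adjusted p of 0.05 in edgeR, 24 in PF382, 14 in TLOm1, 24 in HH and 2 in H9, with ACSS2 to the right in PF382 and ELOVL6 in HH.

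At 250 nM azacitidine with romidepsin, 25 of 35 members fell against untreated cells and 0 rose, where 8.76% of all genes fell and 14.2% rose, 23% in all. The fallen were 18 of 20 cholesterol genes, with a branch median of -1.10, 6 of 9 fatty acid genes, with a branch median of -0.77, and SREBF2. All genes had a median of 0.04. HMGCS1 fell by 2.41 ± 0.33 (edgeR, adjusted p = 4.14e-05), SCD fell by 2.06 ± 0.21 (adjusted p = 1.21e-06) and INSIG1 fell by 1.74 ± 0.22 (adjusted p = 2.35e-05). CYP51A1 (-1.05 ± 0.26), EBP (-0.70 ± 0.18), TMEM97 (-0.48 ± 0.12), FADS1 (-1.01 ± 0.20) and FADS2 (-0.89 ± 0.26), which did not pass with azacitidine alone, fell here, although none of these 5 passed when the combination was set against azacitidine itself. CYP51A1 and TMEM97 no longer passed when HH was left out, EBP when TLOm1 or HH was, and FADS2 when PF382 was, while FADS1 passed without each line in turn. PMVK (-0.02 ± 0.13), TM7SF2 (0.22 ± 0.14), SCAP (-0.03 ± 0.08) and LPIN1 (-0.09 ± 0.14) did not pass. At 125 nM azacitidine with romidepsin, 20 of 35 fell, where 2.6% of all genes fell. These comparisons share the untreated libraries, so their values are not independent.

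Set directly against azacitidine at the same dose, the combination lowered 4 of 35 members, where 2.24% of all genes fell and 3.43% rose, 5.67% in all. LSS fell by 0.52 ± 0.12 (edgeR, adjusted p = 0.0149), INSIG1 fell by 0.74 ± 0.22 (adjusted p = 0.0489), FASN fell by 0.40 ± 0.10 (adjusted p = 0.0194) and ACACA fell by 0.36 ± 0.06 (adjusted p = 0.00269). LSS had 63.6, 87.3, 301 and 93.7 CPM with the combination at 250 nM in PF382, TLOm1, HH and H9, against 83, 152, 453 and 114 CPM with azacitidine alone. FASN had 268, 645, 921 and 754 CPM with the combination in the same lines, against 392, 1010, 1010 and 906 CPM with azacitidine alone. Each was lower with the combination in 4 of 4 lines, although the levels overlapped across lines. ACACA was the member that passed without each line in turn: without PF382 the count was 2, without TLOm1 1 and without HH 2. Against romidepsin alone, 24 of 35 members fell with the combination, where 5.21% of all genes fell. In HH this comparison differs in romidepsin dose as well as in azacitidine.

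For 0 of 35 members did the combination depart from the sum of the log2 changes of the single drugs, where 0% of all genes did. In HH the romidepsin dose was higher in the combination than alone, so in that line the sum is not of matched doses. At an unadjusted p under 0.05 there were 4 of 35, against 3.35% of all genes, and limma-voom and DESeq2 called 0. The slopes on azacitidine dose were fitted with and without romidepsin as well. With romidepsin 24 of 35 members fell per doubling and 1 rose, where 8.62% of all genes fell and 12.7% rose. Without romidepsin 26 fell and 0 rose, where 3.19% of all genes fell and 5.61% rose, 8.8% in all. In 18 of 20 cholesterol genes the slope with romidepsin was the shallower, and their median difference was 0.15 per doubling, against 0.00 over all genes. The share of all genes with a shallower slope is not given here, so this count has no background. HMGCS1 had -0.41 ± 0.09 with romidepsin and -0.78 ± 0.09 without it. The difference passed for 0 of 35 members in edgeR, where 0.00562% of all genes rose. It passed for 0 in limma-voom and for 2 in DESeq2 (MVD and SQLE, each higher with romidepsin). In edgeR 10 of 35 had an unadjusted p under 0.05, against 10.5% of all genes. TM7SF2 rose with dose in the presence of romidepsin, by 0.18 ± 0.05 per doubling (adjusted p = 0.0253).

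Azacitidine was set against no azacitidine within each line, over 6 libraries at any dose against 2. In PF382, 4 of 35 members fell, where 2.39% of all genes fell: INSIG1 (-1.21 ± 0.36), SCD (-1.62 ± 0.50), ACACA (-0.49 ± 0.14) and the transporter ABCG1 (-1.20 ± 0.36). In TLOm1, 15 fell and 2 rose, where 7.68% of all genes fell and 11% rose. In HH, 16 fell and 1 rose, where 1.8% of all genes fell and 4.07% rose. In H9, 5 fell and 0 rose, where 3.06% of all genes fell: PMVK (-0.54 ± 0.11), MVD (-0.68 ± 0.18), LSS (-0.81 ± 0.16), ACACA (-0.47 ± 0.14) and ACSS2 (-0.93 ± 0.23). Pairs of libraries moved these counts. Without the 250 or the 500 nM pair PF382 gave 0, without the 250 or the 500 nM pair TLOm1 gave 10 or 9, without the 125 or the 250 nM pair HH gave 10 or 8, and H9 ran from 2 without the 125 or the 250 nM pair to 10 without the 50 nM pair. The doses pooled here differed between lines. In HH the romidepsin dose was also higher with azacitidine than without it, so the HH effect is not of azacitidine alone. Equality of the effect in the 4 lines was rejected for 3 of 35 members, near the share of all genes, 10.7%. They were ACSS2, ELOVL6 and ABCG1.

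ELOVL6, which extends palmitate to stearate, was a gene of low level in 2 of 4 lines. In TLOm1, ELOVL6 was at 0.286, 1.57, 2.33 and 3.38 CPM with romidepsin and 0.469, 1.94, 3.31 and 3.86 CPM without it. In HH, ELOVL6 was at 0.675, 1.63, 1.49 and 2.46 CPM with romidepsin and 0.174, 0.393, 0.295 and 0.631 CPM without it. ELOVL6 rose with azacitidine, by 2.83 ± 0.36 in TLOm1 (adjusted p = 2.63e-05) and 1.41 ± 0.39 in HH (adjusted p = 0.0309), and HH rose with romidepsin by 2.07 ± 0.22 (adjusted p = 6.63e-07). In PF382, ELOVL6 was at 10.1, 10.9, 12.8 and 11.2 CPM with romidepsin and 10.6, 15.1, 13.4 and 14.3 CPM without it. In H9, ELOVL6 was at 10.4, 11, 9.3 and 7.08 CPM with romidepsin and 11, 8.49, 7.44 and 6.98 CPM without it. Neither line passed the test with either drug, at 0.32 ± 0.24 and -0.36 ± 0.23 with azacitidine in PF382 and H9.

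ACSS2 in PF382 was at 11.1, 17.9, 21.2 and 24.1 CPM with romidepsin and 5.59, 4.73, 5.45 and 5.16 CPM without it. There ACSS2 rose with romidepsin by 1.79 ± 0.22 (adjusted p = 1.08e-05). ACSS2 in H9 was at 58.1, 35.8, 29.9 and 26.7 CPM with romidepsin and 62.7, 43.8, 31.9 and 22.6 CPM without it. H9 fell with azacitidine and did not pass with romidepsin, at -0.07 ± 0.19. TLOm1 and HH passed neither test, at 0.39 ± 0.19 and 0.18 ± 0.25 with romidepsin.

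FADS2 separated the lines by level, and the direction of its change with azacitidine varied between them too. In untreated cells it had 523 CPM in PF382 and 326 CPM in H9, against 9.69 CPM in TLOm1 and 7.02 CPM in HH. FADS2 in PF382 was at 392, 289, 263 and 187 CPM with romidepsin and 523, 428, 352 and 259 CPM without it. FADS2 in H9 was at 327, 247, 207 and 117 CPM with romidepsin and 326, 283, 216 and 106 CPM without it. It was lower at each higher dose in PF382 and H9, while TLOm1 and HH stayed between 4.41 and 13.3 CPM. At 250 nM azacitidine its log2 change was -0.57 in PF382 and -1.62 in H9, against 0.45 in TLOm1 and 0.61 in HH. With the doses pooled, the test that azacitidine had equal effects in the lines was not passed by FADS2. FADS1, its neighbour on chromosome 11, did not show that split of levels. Its untreated levels were 247, 162, 89.3 and 199 CPM in PF382, TLOm1, HH and H9.

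The transporters export or absorb sterol, and in edgeR no mean treatment effect over the 4 lines passed the test for them. ABCG1, which exports cholesterol and is induced by LXR receptors, was at 43.5, 21.1, 21.5 and 18.4 CPM with romidepsin and 25.2, 11, 10.3 and 9.51 CPM without it in PF382. ABCG1 in TLOm1 was at 0.143, 0.201, 1.04 and 2.46 CPM with romidepsin and 0.0427, 0.22, 0.349 and 1.46 CPM without it. Azacitidine moved ABCG1 in opposite directions in these lines, with -1.20 ± 0.36 in PF382 (adjusted p = 0.0395) and 3.28 ± 1.01 in TLOm1 (adjusted p = 0.0261), where the untreated library was below the floor of 3 counts, so that the fitted size is uncertain. ABCG1 in HH was at 4, 4.4, 6.1 and 8.92 CPM with romidepsin and 2.09, 2.03, 1.8 and 2.9 CPM without it. ABCG1 in H9 was at 34.8, 27.2, 17.2 and 17.6 CPM with romidepsin and 38, 27.6, 20.0 and 12.7 CPM without it. Romidepsin raised ABCG1 by 0.93 ± 0.12 in PF382, 0.89 ± 0.29 in TLOm1 and 1.40 ± 0.16 in HH, with 0.02 ± 0.12 in H9 (adjusted p of the difference = 8.45e-05).

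ABCA1, which loads cholesterol onto apolipoprotein A-I, was well counted in PF382. ABCA1 in PF382 was at 10.6, 6.67, 7.79 and 8.96 CPM with romidepsin and 20.0, 14.6, 13.2 and 8.12 CPM without it, and it fell with romidepsin there by 0.67 ± 0.20 (adjusted p = 0.0187). In TLOm1, ABCA1 had 1, 0, 8 and 63 counts with romidepsin and 2, 0, 11 and 36 counts without it. Its 2 libraries at 500 nM held most of the TLOm1 counts, and azacitidine in TLOm1 did not pass (adjusted p = 0.0755). In HH and H9 no library had more than 2 counts of ABCA1. NPC1L1, the intestinal sterol absorber, had at most 16 counts in any library, reached in TLOm1 with the combination at 500 nM. In TLOm1, NPC1L1 had 4, 5, 11 and 16 counts with romidepsin and 15, 12, 9 and 8 counts without it. In HH, NPC1L1 had 3, 3, 3 and 6 counts with romidepsin and 1, 1, 8 and 3 counts without it. For the combination against untreated over the 4 lines, NPC1L1 did not pass in edgeR, but it did in limma-voom and in edgeR without TLOm1, where it was higher. In PF382, NPC1L1 had 0, 1, 6 and 2 counts with romidepsin and 0, 2, 2 and 0 counts without it. In H9, NPC1L1 had 2, 1, 1 and 6 counts with romidepsin and 0, 0, 1 and 3 counts without it. Most of these libraries lay at or below the floor of 3 counts, and no fold is read from them.

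**Figure D5:**
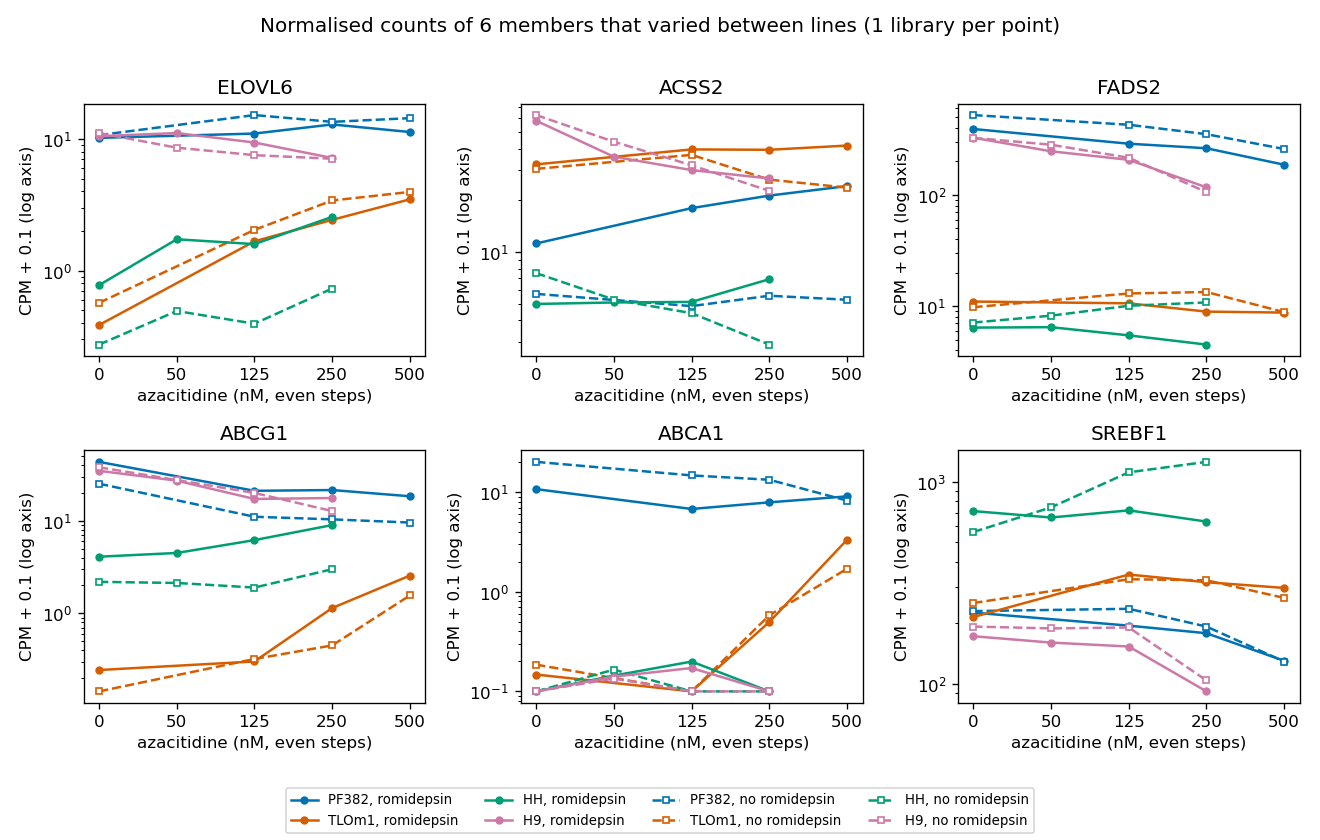
CPM plus 0.1 on a log axis (y) against azacitidine dose in nM (x, even steps) for ELOVL6, ACSS2, FADS2, ABCG1, ABCA1 and SREBF1, 1 library per point, filled circles with romidepsin and open squares without. The 4 lines start at different levels, with ELOVL6 and ABCG1 climbing in TLOm1 and SREBF1 climbing in HH without romidepsin.

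Other genes of the pathway were counted from lists of related genes. At 250 nM azacitidine, 5 of 7 tested genes of a list of further sterol synthesis and uptake genes fell and 0 rose, with a median of -0.70, where 2.14% of all genes fell and 3.85% rose, and 6 of 7 fell with the combination, where 8.76% of all genes fell. Among them, MSMO1, the C4 methyl sterol oxidase, fell by 1.25 ± 0.25 with azacitidine (edgeR, adjusted p = 0.00467), and SC5DL, the sterol C5 desaturase, fell by 0.95 ± 0.19 (adjusted p = 0.00467). Isoprenoid genes, which take farnesyl diphosphate to other products, gave 1 of 11 lower and 2 higher at 250 nM azacitidine, where 2.14% and 3.85% of all genes did so, with a median of -0.02. The carboxyl methyltransferase ICMT rose by 0.44 ± 0.09 and the CAAX protease RCE1 rose by 0.33 ± 0.09, while GGPS1, the geranylgeranyl diphosphate synthase, fell by 0.37 ± 0.11. Of 9 further genes that control SREBP, 1 fell and 2 rose against the same shares of all genes, and INSIG2, the second INSIG, was the one that fell, at -0.67 ± 0.20.

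In a list of further fatty acid genes, at 250 nM azacitidine, 0 of 21 passed in edgeR, with a median of -0.06, and 5 had an unadjusted p under 0.05, near the 21.5% of all genes that did. With the combination 4 of 21 fell and 2 rose, near the 23% of all genes called in either direction, among them the carbohydrate response factor MLXIPL (1.89 ± 0.63), FADS3 (0.91 ± 0.31) and HSD17B12 (-0.43 ± 0.12), a reductase of chain elongation. Per doubling of dose 5 of 21 fell and 1 rose, near the 28.5% of all genes called, and the malic enzyme ME1, a source of NADPH, rose by 1.65 ± 0.19 (adjusted p = 4.80e-06), while the citrate carrier SLC25A1 and the acyl-CoA synthetase ACSL3 each fell by 0.15 ± 0.02 and 0.15 ± 0.03. Of 7 tested genes of a list of LXR receptors and their targets, 0 passed with azacitidine at 250 nM in edgeR, with 2 at an unadjusted p under 0.05, near the share of all genes. With the combination 2 of 7 rose, where 14.2% of all genes rose, among them ABCG4, a sterol exporter, by 3.14 ± 0.57. Among 10 genes of cholesterol uptake and esters, 1 passed at 250 nM azacitidine, not far from the 5.99% of all genes called in either direction. It was NPC2, a lysosomal cholesterol carrier, which fell by 0.56 ± 0.12. With the combination NPC2 was at -0.19 ± 0.12 (adjusted p = 0.255). SOAT1, which esterifies cholesterol, rose with it by 0.40 ± 0.11 (adjusted p = 0.0124), where 14.2% of all genes rose.

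These calls rest on a spread pooled over 32 libraries with the line as a term. With only the libraries of the groups compared in the fit, 1 of 35 members fell at 250 nM azacitidine, among 30 genes called in all, and 9 of 35 fell with the combination, among 63. Without the line term, 0 of 35 fell at 250 nM azacitidine and 2 with the combination. Leaving out HH, and leaving out H9, gave 13 members lower at 250 nM azacitidine in place of 20. The 10 that passed without each line in turn were HMGCS1, MVK, MVD, FDPS, FDFT1, LSS, DHCR7, SCD, ACACA and ACLY. For the combination, 21 of 25 passed without each line in turn, the exceptions being CYP51A1, EBP, TMEM97 and FADS2. In the reference annotation FDPS, CYP51A1, HSD17B7, TMEM97, SCD and FADS2 have pseudogenes named after them. ACAT2, MVK with MMAB, FADS1 with FADS2, TM7SF2 and others overlap neighbours, and how reads were split among these is not given in the sources used here, so their levels are uncertain by that much.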

How the data were processed

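Messenger RNA of 32 libraries, 8 treatments in each of 4 lines, was sequenced from stranded libraries, per the labels' protocols, which name both polyA RNA and rRNA depletion. The authors deposited raw read counts per gene symbol. The submitters' processing notes name STAR, DESeq2, limma and the build GRCh37.p2; for the counting tool, its annotation and the handling of strand, nothing is given in the sources at hand. Counts were tested with edgeR 4.0.16 (R 4.3.3) by quasi-likelihood F tests with TMM scaling, robust dispersion and the low-count filter filterByExpr (minimum count 10, minimum total 15), and p-values were adjusted by Benjamini-Hochberg over all 17801 genes at 0.05. Log2 changes come from these fits, and the SE is the size of the log2 change over the square root of F.

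The comparisons of groups used 32 libraries in 10 groups with the line as a term. The dose slope used 24 libraries with line and romidepsin status, and effects within lines used intercepts for each line and dose or for each line and romidepsin status. The line takes the place of a replicate number: of 60 pairs of same-line libraries, 60 had correlated deviations from their group means (0.86 to 0.973). Within a line the libraries carry no replicate, so p-values within a line rest on the spread left after these terms. The labels do not give separate cultures, and the spread may be partly technical. No 2 libraries agreed within sampling noise (lowest chi-square per gene 4.54).

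Total counts of 16175077 to 32496676 put the floor of 3 counts at 0.0982 to 0.196 CPM, which covers counting error only. DESeq2 1.42.0, limma-voom (limma 3.58.1), RLE scaling, other filters, fits without the line term or with the compared libraries only, and left-out lines and doses were tried. Scripts were tested on simulated data. Members and lists were chosen with earlier results of these data known. Values in every library were given by rule for the 3 called members of each branch with the largest absolute log2 change at 250 nM azacitidine, for SREBF1, SREBF2, SCAP and INSIG1, and for the transporters, and of each further list the 3 called genes with the largest absolute log2 change were to be named. LSS, FASN, ELOVL6, ACSS2 and FADS2 were added after their values were seen. Some genes of the further lists are counted and not named. Figures were drawn with matplotlib 3.10.9.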

Additional observations from a re-analysis of the deposited data

Results flagged for a closer look

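In romidepsin-treated cells, ABCG1 in H9 stood apart from the other lines. Its log2 change from untreated was -0.1238 in H9, against 0.7867 to 0.9074 in the other 3. Of 105 groups of 4 line changes examined, 1 stood apart in this way, and chance alone marks about 1 in 20.

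The romidepsin effect differed between lines for 18 members, by the edgeR test of the difference, where 33% of all genes passed that test. Among cholesterol genes, the adjusted p was 0.047 for ACAT2, 0.0471 for HMGCS1, 0.00283 for MVK, 0.00166 for FDPS, 0.000284 for FDFT1 and 0.0154 for SQLE. It was 6.65e-06 for EBP, 0.00844 for STARD4, 0.0288 for TMEM97 and 0.00998 for MMAB. SREBF2 was at 0.0172. In the fatty acid branch it was 0.0453 for FASN, 0.0492 for ACLY, 0.000656 for ACSS2, 3.5e-06 for ELOVL6, 0.00167 for FADS1 and 0.0201 for FADS2. ABCG1 was at 8.45e-05.

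The azacitidine effect differed between lines for 3 members, where 10.7% of all genes passed, with an adjusted p of 0.0449 for ACSS2, 0.000318 for ELOVL6 and 0.0187 for ABCG1. The pooled doses differed between the lines, and a romidepsin dose of 1.25 nM was used in PF382 and in the HH combinations, so dose and line cannot be told apart here.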

How the results depend on the processing

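Counts of members lower changed with the libraries and terms in the fit. Without the replicate block (no line term), they were 0 in place of 20 for azacitidine at 250 nM, 2 in place of 25 for the combination at 250 nM, 0 in place of 20 for the combination at 125 nM, 0 in place of 4 against azacitidine and 0 in place of 24 against romidepsin. With the compared libraries only, they were 1, 9, 0, 0 and 4 in the same order, and 1 in place of 0 for romidepsin alone. At 125 nM azacitidine, where edgeR gave 0, limma-voom gave 1, DESeq2 7 and a minimum count of 50 gave 2. For H9, limma-voom gave 2 in place of 1 with romidepsin and 8 in place of 5 with azacitidine. The cause of these changes was not tested.

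Leaving out each line, the counts ran from 13 to 19 for azacitidine at 250 nM, 0 to 3 at 125 nM and 1 to 4 for the combination against azacitidine. Leaving out each dose, they ran from 0 to 1 for romidepsin in H9, and with azacitidine from 0 to 6 in PF382, 9 to 21 in TLOm1, 8 to 19 in HH and 2 to 10 in H9. The azacitidine difference between lines ran from 2 to 9. The dose slope kept between 25 and 27 members lower without each line.

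Of the sign changes, the following concern members that did not pass in edgeR with all libraries. At 250 nM azacitidine, the log2 change without each line in turn ran from -0.2004 to 0.01681 for TM7SF2, -0.2818 to 0.4242 for SREBF1, -0.03172 to 0.0564 for SCAP, -0.6298 to 0.09215 for FADS2 and -0.5752 to 2.099 for ABCA1. At the highest dose of each line it was -0.06758 for SREBF1, -0.002291 for SCAP and 0.4891 for ABCA1, and ABCA1 was at 0.3304 in DESeq2 and 0.08829 with the compared libraries only. For the combination against untreated, the ranges without each line were -0.09208 to 0.09851 for PMVK, -0.4375 to 0.02478 for SREBF1, -0.3596 to 0.6842 for ACSS2, -0.2038 to 0.1362 for LPIN1, -1.296 to 1.884 for ABCA1 and -0.2348 to 1.069 for ABCG1. PMVK was at 0.009337 with RLE scaling, 0.009075 in limma-voom, 0.0107 in DESeq2 and 0.03583 without the line term. In limma-voom and without the line term, ACSS2 was at -0.03669 and -0.175, and ABCG1 at -0.268 and -0.4135. At the highest doses LPIN1 was at 0.08218 and ABCA1 at 1.365, and ABCA1 was at 0.0619 in DESeq2. For the combination against azacitidine, the ranges were -0.1519 to 0.04439 for HSD17B7 and -0.2115 to 0.5987 for ELOVL6, and the highest doses gave 0.006201 for MVD, 0.01592 for CYP51A1, 0.03538 for HSD17B7 and 0.876 for ABCA1. For the dose slope, the ranges were -0.003704 to 0.03056 for SCAP, -0.04502 to 0.2268 for ELOVL6, -0.01913 to 0.04884 for LPIN1, -0.1504 to 1.806 for ABCA1 and -0.1003 to 0.3356 for ABCG1. In limma-voom ELOVL6 was at -0.01144 and ABCG1 at -0.139, and without the libraries at 500 nM ELOVL6 was at -0.004906, LPIN1 at -0.02966 and ABCG1 at -0.0725.

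DESeq2 gave no adjusted p for some low members, and those have no value there. With 1 library per line and treatment, small falls such as that of TMEM97 lie near the threshold, and NPC1L1 had at most 16 counts in any library and ABCA1 at most 2 in HH and H9, which limits what can be detected there.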
